A study of Mus musculus with 2148 samples.

Results

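Olfactory receptor (Olfr) genes encode the odorant receptors of the nose, and 19.1% of the Olfr genes in the count table passed a fixed limit of detection in mature medullary thymic epithelial cells (mTEChi). The members were chosen by their read counts, as the genes with a symbol starting with Olfr that had 5 or more reads in at least 5 of the 620 mTEChi cells of adult wild-type (WT) mice. A cell with 5 or more reads of a gene is said here to read that gene. Since the adult WT mTEChi cells chose the members, their levels in those cells, and every comparison of the members with those cells, are given as descriptions with no test.

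In the olfactory epithelium a sensory neuron expresses a single Olfr gene, from a single allele, out of a family that lies in clusters on many chromosomes. The receptor acts through the olfactory G protein and adenylyl cyclase, which open a cyclic nucleotide-gated channel. In the thymus, mTECs transcribe many genes that are otherwise restricted to other tissues, so that developing T cells meet their products, and the nuclear protein Aire is needed for a large share of that transcription.

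The study sequenced single thymic epithelial cells of C57BL/6 mice with RamDA-seq, which captures full-length total RNA, to ask how Aire acts in the subpopulations of mTECs. Sorted live CD45- EpCAM+ cells were split into mTEChi (Ly51- with high MHC class II), mTEClo (Ly51- with low MHC class II) and cortical cells (cTEC, Ly51+). Cells had a median of 692880 reads, with a range of 203010 to 1.82378e+06. Cells of a group that shared the same age and sex labels were summed into pools, which are the replicates here. Adult WT mTEChi gave 4 pools: pool 1 (4 weeks, male) held 71.6% of the 620 cells, pool 2 (5 weeks, male) 12 cells, pool 3 (6 weeks, male) 82 cells and pool 4 (4 weeks, female) 82 cells. Adult WT mTEClo gave 3 pools, at 8, 5 and 4 weeks. The other groups were 1 pool each, so their values have no replicate: Aire-KO mTEChi and Aire-KO mTEClo, both from 5-week-old mice lacking Aire, mTEChi, mTEClo and cTEC of newborn WT mice (1 day), and adult WT cTEC (6 weeks). The labels name no mice, and whether a pool holds 1 mouse or several is not given, so p-values over pools measure the spread between these samples. Aire was at 1109.7, 1844.6, 1125.1 and 1789.7 CPM (reads of the gene scaled to the total reads of its pool) in the 4 adult WT mTEChi pools, at 1469.3 CPM in newborn mTEChi and at 26.1 CPM in Aire-KO mTEChi. The mature mTEC marker list (Aire, Cd80, H2-Aa and Fezf2, with at least 3 genes read) was met by 99.7% of adult WT, 97.7% of newborn and 96.7% of Aire-KO mTEChi cells, and by 63.3% of adult WT mTEClo cells.

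The members lay on 17 of the 19 chromosomes that carry Olfr genes and in 46 of 61 positional clusters, where a cluster is a run of Olfr genes with gaps of at most 1000 kb. A cluster on chromosome 17 next to the nonclassical MHC class I genes, at chr17:37083871-38336643 (GRCm38), held 57 Olfr genes of which 32 were members. It is treated apart from the other members throughout, a division made after its values were seen. By annotation 88.1% of members were protein coding, 16 were unprocessed pseudogenes, 10 were polymorphic pseudogenes and 3 were transcribed pseudogenes. Of the 30 members whose span overlaps another gene, 15 overlap in an exon, among them Olfr753-ps1, Olfr754-ps1, Olfr374 and Olfr1140. Because the counting was not stranded, reads that lie wholly in the shared stretch cannot be assigned to the member or its partner. How the counting treated such reads is not stated.

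RefSeq promoter windows of 300 bases (250 before and 50 after the annotated start, GRCm38.p6) were found for 70.9% of members, and for 28 of these the RefSeq start lay within 100 bases of the start of the gene model used here, giving 29 windows. Most other windows begin at the coding start and are left out of the shares for the 29 windows. In the 29 windows, the letters TATAAA were found in 24.1%, TAATTA in 13.8% and CCCNNGGG in 34.5%, on either strand. Over 32851 promoters of all genes the same letters were found in 13.6%, 5.29% and 13.7%, and in windows of other Olfr genes selected the same way in 36.6%, 21.8% and 6.93%. The windows of Olfr108, Olfr98, Olfr921 and Olfr374 show what the letters look like in place, with capitals marking the first of these matches in each window. Olfr108 (chr17:37445230-37445529, plus strand) and Olfr98 (chr17:37263613-37263912, minus strand) are the members of the chromosome 17 cluster with the most adult WT mTEChi cells among those with such a window, and the stretch around CCCTAGGG is closely alike in both. Olfr921 (chr9:38772838-38773137, plus strand) has TATAAA 55 bases before the start, and Olfr374 (chr8:72106790-72107089, plus strand), whose exons overlap a predicted gene, has CCCTGGGG 51 bases before it.
Olfr108: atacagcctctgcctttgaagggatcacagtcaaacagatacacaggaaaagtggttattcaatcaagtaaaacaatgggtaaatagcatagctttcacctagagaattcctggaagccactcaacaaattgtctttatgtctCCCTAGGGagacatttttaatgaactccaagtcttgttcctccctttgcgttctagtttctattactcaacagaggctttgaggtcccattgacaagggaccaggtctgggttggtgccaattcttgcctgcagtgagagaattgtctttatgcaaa
Olfr98: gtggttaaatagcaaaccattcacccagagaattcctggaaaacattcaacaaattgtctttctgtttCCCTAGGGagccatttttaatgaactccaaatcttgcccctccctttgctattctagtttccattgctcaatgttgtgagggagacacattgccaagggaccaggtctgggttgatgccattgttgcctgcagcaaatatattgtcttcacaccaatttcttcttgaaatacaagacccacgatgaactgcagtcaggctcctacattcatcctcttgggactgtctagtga
Olfr921: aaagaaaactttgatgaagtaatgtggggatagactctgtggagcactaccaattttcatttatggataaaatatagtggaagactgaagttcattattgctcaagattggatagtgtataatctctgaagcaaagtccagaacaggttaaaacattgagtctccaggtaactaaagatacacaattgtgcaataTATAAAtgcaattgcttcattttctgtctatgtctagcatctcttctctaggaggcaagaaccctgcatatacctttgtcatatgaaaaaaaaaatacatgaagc
Olfr374: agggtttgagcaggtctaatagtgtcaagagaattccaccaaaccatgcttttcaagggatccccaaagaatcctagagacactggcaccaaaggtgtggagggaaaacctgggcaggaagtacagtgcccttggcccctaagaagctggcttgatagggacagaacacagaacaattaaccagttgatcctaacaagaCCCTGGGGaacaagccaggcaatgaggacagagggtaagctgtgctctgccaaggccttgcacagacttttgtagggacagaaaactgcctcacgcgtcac
The windows shown hold few CG pairs, from 0 in Olfr921 to 2 in Olfr374, and among the 29 windows Olfr976 had 8. The median GC content was 42% over the 29 member windows, 36% over windows of other Olfr genes selected the same way and 52.7% over all promoters. A match of letters is a description of the window and does not identify a binding site.

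Reading a member was common for a cell but rare for a gene. Of the 620 adult WT mTEChi cells, 98.1% (95% exact binomial interval 96.64 to 98.996) read at least 1 member, and a cell read 8.599 ± 0.935 members (SD over 4 pools), at 9.40, 7.58, 9.39 and 8.02 in pools 1 to 4. The pools overlapped closely, and the 10 plates ranged from 7.29 to 10.8. Intervals of this kind, here and elsewhere, cover counting error only. Few cells were near 0 or 1 member: 1.94% read none, 5.16% read 1, 18.7% read 2 to 4, 33.2% read 5 to 9, 33.1% read 10 to 19 and 7.90% read 20 or more, up to 33. A cell that read any member read on average 9.36 of them from 3.91 clusters, and the most abundant Olfr gene of a cell took a median of 29.4% of its Olfr reads. A single receptor took more than 50% of the Olfr reads in 11.3% of cells.

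The median member was read in 1.29% of adult WT mTEChi cells. By share of cells, 68.9% of members were under 2%, 59 were from 2 to 10% and 17 were at 10% or more. In the cells that read it, the median member had 15 reads (20.2 CPM), and 46 members had more than 50% of their reads in 1 cell. In all, 38 members were read in all 4 pools, 41.8% of members in 3, 86 in 2 and 18 in 1, and no member was read in 1 plate alone. Of the Olfr genes that are no members, 37.5% were read in no adult WT mTEChi cell and 62.5% in 1 to 4 cells.

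The limit divided genes of like abundance. Just inside it, Olfr329-ps, Olfr877 and Olfr324 were each read in 5 cells, at 2.99, 1.899 and 1.84 CPM over the group. Just outside, Olfr1350, Olfr466 and Olfr911-ps1 were each read in 4 cells. With 49 members at exactly 5 cells and 67 genes at exactly 4, the number of members follows the choice of limit.

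**Figure D1:**
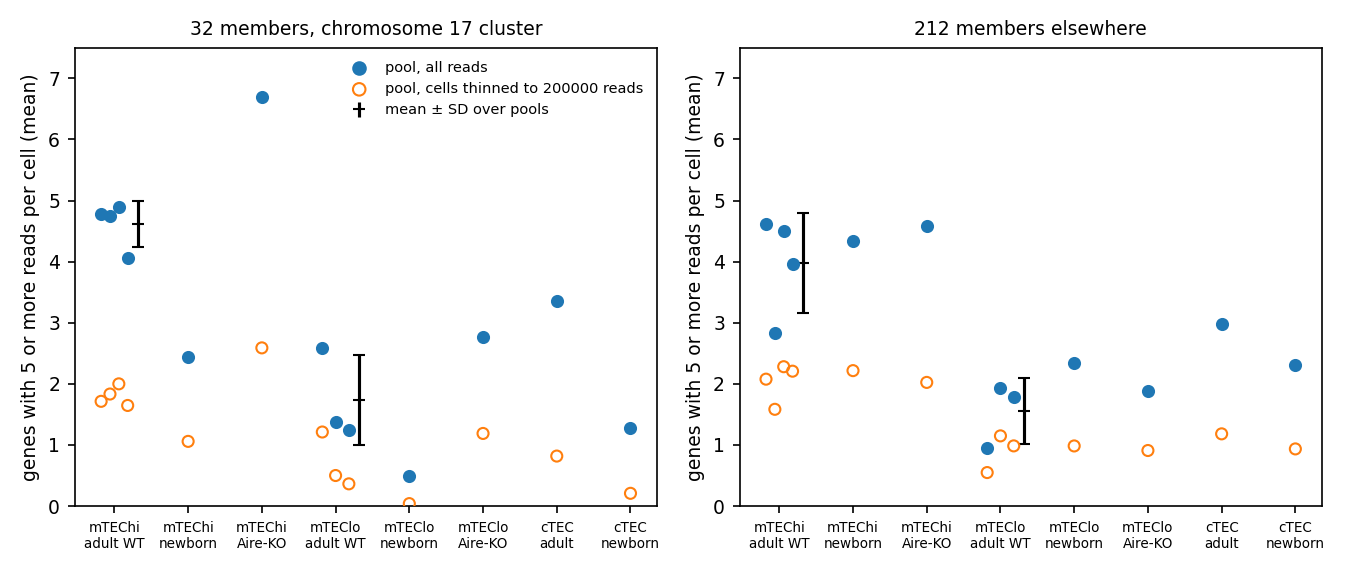
Mean number of members with 5 or more reads per cell in each group, for the 32 members of the chromosome 17 cluster (one panel) and for the members elsewhere (the other). Points are pools, filled for all reads and open for cells thinned to 200000 reads, and bars give mean ± SD over pools. Aire-KO mTEChi, at 6.69, lies above the adult WT mTEChi pools (4.06 to 4.89) in the chromosome 17 panel and within reach of them in the other (4.59 against 2.83 to 4.62).

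Members were read in every sort, and most in mTEChi. Aire-KO mTEChi cells read 11.3 members on average (plates 7.73 to 13.9), newborn mTEChi cells 6.78, Aire-KO mTEClo 4.64, adult WT mTEClo 3.29 ± 0.248 (SD, 3 pools) and newborn mTEClo 2.85. Cortical cells, which do not belong to the medullary lineage, read 6.34 in the adult and 3.59 in the newborn. These groups differ in depth, with median reads per cell of 772240 in adult WT mTEChi, 548467 in newborn mTEChi, 812728 in Aire-KO mTEChi, 592899 in adult WT mTEClo and 862537 in adult cTEC. After every cell was thinned to 200000 reads, the means were 3.86 in adult WT mTEChi, 3.27 in newborn mTEChi and 4.61 in Aire-KO mTEChi. They were 1.66 in adult WT mTEClo, 2.00 in adult cTEC and 1.14 in newborn cTEC. The rule, applied in adult WT mTEChi, favours that sort in this order, and thinning does not remove the choice. Over all Olfr genes, whatever their level, thinned cells of these groups read 4.82, 4.13, 4.92, 1.80, 2.05 and 1.19 genes. Of the members, 98 were read in no mTEClo or cTEC cell.

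The groups differed in how the chromosome 17 cluster and the remaining members contributed. Members of the cluster were read at 4.62 ± 0.377 genes per adult WT mTEChi cell (SD, 4 pools; 4.78, 4.75, 4.89 and 4.06), at 2.44 in newborn and at 6.69 in Aire-KO mTEChi, and at 0.5 in newborn mTEClo. The other members were read at 3.98 ± 0.815 genes per adult WT mTEChi cell (4.62, 2.83, 4.50 and 3.96), at 4.33 in newborn and at 4.59 in Aire-KO mTEChi, and at 1.31 in adult WT mTEClo. Thinned, the other members gave 2.11, 2.22 and 2.02 in adult WT, newborn and Aire-KO mTEChi.

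The chromosome 17 cluster held 11 of the 12 members read in the most adult WT mTEChi cells. Olfr753-ps1 (chr17:37168313-37185730), a pseudogene, was read in 53.8, 83.3, 60.98 and 47.6% of the cells of pools 1 to 4 and at 34.7, 30.3, 40.7 and 36.8 CPM. It was read in 33.9% of newborn and 55.9% of Aire-KO mTEChi cells, at 15.6 and 33.1 CPM, and in 29.03, 10.8 and 10.6% of the cells of the 3 mTEClo pools. The Aire-KO value lay within the adult WT pools and the newborn value below them. Olfr99 (chr17:37279043-37283460), a protein-coding receptor gene, was read in 55.2, 33.3, 43.9 and 47.6% of cells at 11.7, 6.13, 12.8 and 10.4 CPM. In Aire-KO mTEChi it was read in 71.01% of cells at 18.3 CPM, above every WT pool, and in newborn mTEChi in 18.7% at 3.88 CPM, below every WT pool.

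Olfr109 (chr17:37458916-37471590) was read in a like share of cells in each pool, at 51.6, 50, 48.8 and 51.2%, and at 26.8, 30.2, 40.3 and 33.5 CPM. It reached 59.5% and 54.7 CPM in Aire-KO mTEChi, and 33.9% and 18.0 CPM in newborn mTEChi. Olfr94 (chr17:37196425-37200994), which lies 330 bases from Ubd, the gene of the ubiquitin-like protein FAT10, was read in 36.7, 33.3, 32.9 and 41.5% of cells, in 42.01% in Aire-KO and 20.5% in newborn mTEChi, and in 5.99, 9.46 and 9.09% of the cells of the mTEClo pools. Its mTEChi pools therefore lay above all mTEClo pools. Olfr101 (chr17:37297556-37304313) was read in 21.4, 25, 15.9 and 13.4% of cells at 4.14 ± 0.208 CPM (SD, 4 pools) and in 37.0% at 11.9 CPM in Aire-KO mTEChi. Olfr756-ps1 was read in 20.7, 8.33, 19.5 and 19.5% of cells and in 39.9% in Aire-KO. For Olfr99, Olfr101, Olfr109 and Olfr756-ps1 the Aire-KO value was thus outside the range of the WT pools, on the high side. The other members of the cluster among the 12, Olfr755-ps1, Olfr754-ps1, Olfr760-ps1, Olfr105-ps and Olfr107, were read in 40.6, 25.8, 24.03, 23.9 and 21.3% of the cells.

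The cluster was also read widely outside mTEChi. At least 1 of its 57 Olfr genes was read in 92.3% of adult WT mTEChi cells, 96.4% of Aire-KO mTEChi, 71.3% of newborn mTEChi, 68.3% of adult WT mTEClo, 73.4% of Aire-KO mTEClo, 79.2% of adult cTEC, 56.8% of newborn cTEC and 26.6% of newborn mTEClo. Summed over the 57 genes, adult cTEC had 66.1 CPM and adult WT mTEClo 57.6 CPM, against 144.9 to 175.8 CPM in the adult WT mTEChi pools.

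Olfr920, on chromosome 9 (chr9:38752299-38760117), followed another order. It was read in 41.7, 33.3, 26.8 and 42.7% of the cells of the WT mTEChi pools at 31.5, 43.6, 23.7 and 47.3 CPM, in 30.2% of Aire-KO and 61.4% of newborn mTEChi cells, at 19.1 and 58.7 CPM. The shares were highest in cortical cells, at 70.1% in the adult and 79.9% in the newborn, and newborn mTEClo reached 54.03%. In CPM, newborn mTEChi (58.7) and adult cTEC (49.9) lay above every WT mTEChi pool, and newborn cTEC (46.2) within them. Thinned to equal depth, its shares were 54.5 and 61.9% in adult and newborn cTEC against 13.4 to 33.3% in the WT mTEChi pools.

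**Figure D2:**
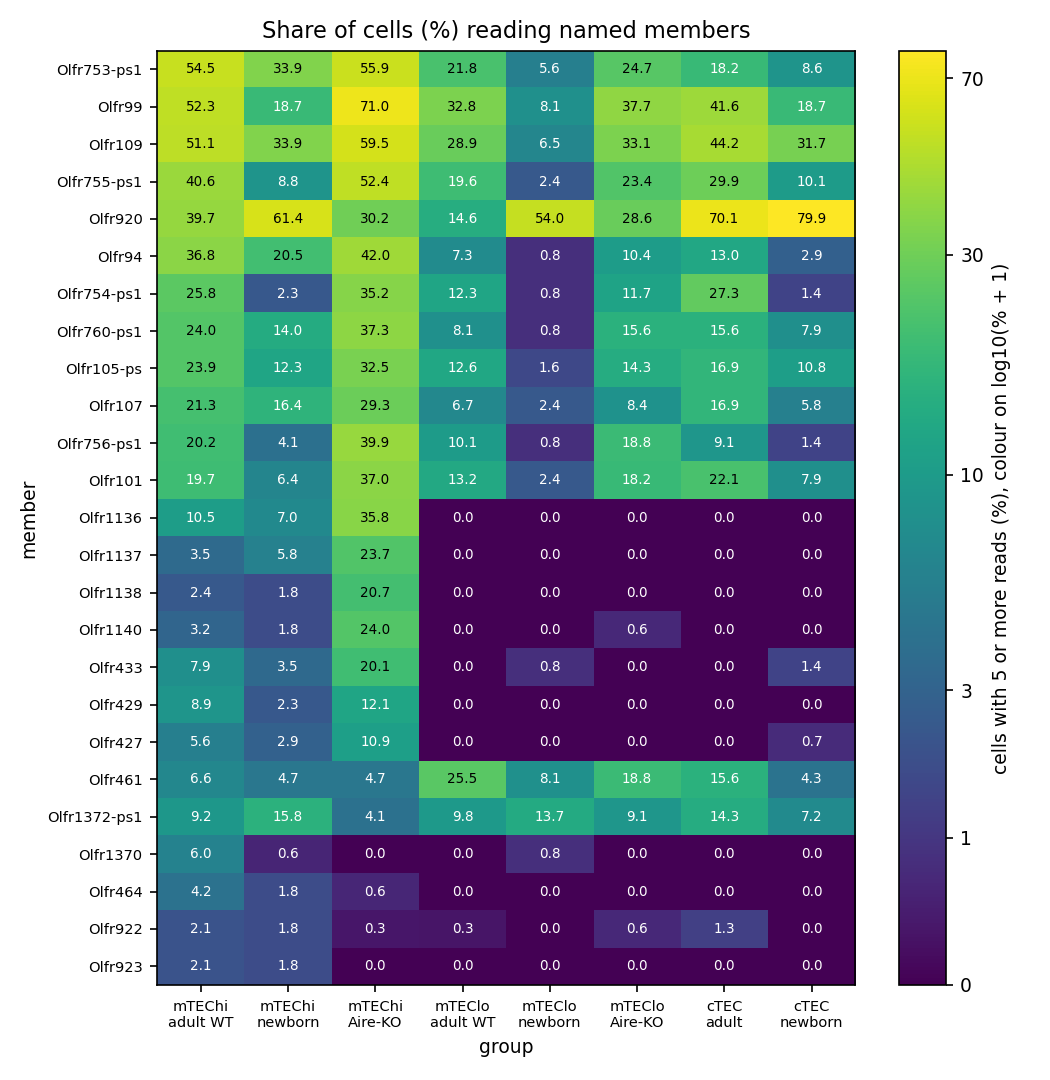
Share of cells (%) with 5 or more reads for 25 members (rows) in the 8 groups (columns), coloured by log10 of the share plus 1. Each of the 11 genes of the chromosome 17 cluster has its highest share in Aire-KO mTEChi, Olfr920 has its highest shares in the cTEC columns (70.1 and 79.9%), and Olfr1136, Olfr1137, Olfr1138 and Olfr1140 are near 0 outside mTEChi.

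Members that lie close together were often read in the same cell. Over pairs of members within 100 kb of each other, 28.2% of the cells that read a member also read its neighbour in adult WT mTEChi. That was 2.17 times the share of all cells that read the neighbour. No pair overlapped, and 62.7% of pairs lay on the same strand. Outside the chromosome 17 cluster, where most members were rare, the share was 29.1% for pairs within 100 kb, 6.12% from 100 kb to 1 Mb, 3.86% beyond 1 Mb and 3.65% between chromosomes. Set against the share of all cells that read the neighbour, this was 9.99 times, 3.69 times, 2.15 times and 1.73 times.

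In each pool and group, share and ratio were highest for pairs within 100 kb, and the order beyond that distance differed. In newborn and Aire-KO mTEChi, the share from 100 kb to 1 Mb (2.20 and 1.69%) was below that between chromosomes. The pools gave 29.2, 15.6, 35.03 and 23.8% within 100 kb (ratios 9.89, 9.33, 10.9 and 7.32). In newborn mTEChi the shares were 24.5% within 100 kb and 2.90% between chromosomes, and in Aire-KO mTEChi 26.6 and 2.69%, with ratios of 8.05 and 1.44, and of 3.05 and 1.31. The pairs shared reads of no exon, but cells of a plate share handling and depth, and how these enter the pairing was not tested.

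The pairs read together in the most cells lay in the chromosome 17 cluster. Olfr99 and Olfr755-ps1, 2.395 kb apart, were read together in 69.1% of the cells reading Olfr99 and 88.9% of those reading Olfr755-ps1. Of the cells reading Olfr760-ps1, 95.3% also read Olfr109, and of those reading Olfr107, 93.2% did so. Of the cells reading Olfr94, 69.7% also read Olfr753-ps1 and 56.6% Olfr99, and of those reading Olfr105-ps, 85.1% also read Olfr109. These partners were read widely in all cells. By adult WT mTEChi plate, the median share was 53.5% for Olfr753-ps1, 46.5% for Olfr99, 50.6% for Olfr109 and 35.7% for Olfr755-ps1. The 56.6% for Olfr99 lay within its plate range of 20 to 66.7%. Outside the cluster, with pairs chosen after their values were seen, Olfr921 was read with Olfr920 in 29 of its 34 cells, and Olfr922 with Olfr923 in 12 of 13 cells of each.

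**Figure D3:**
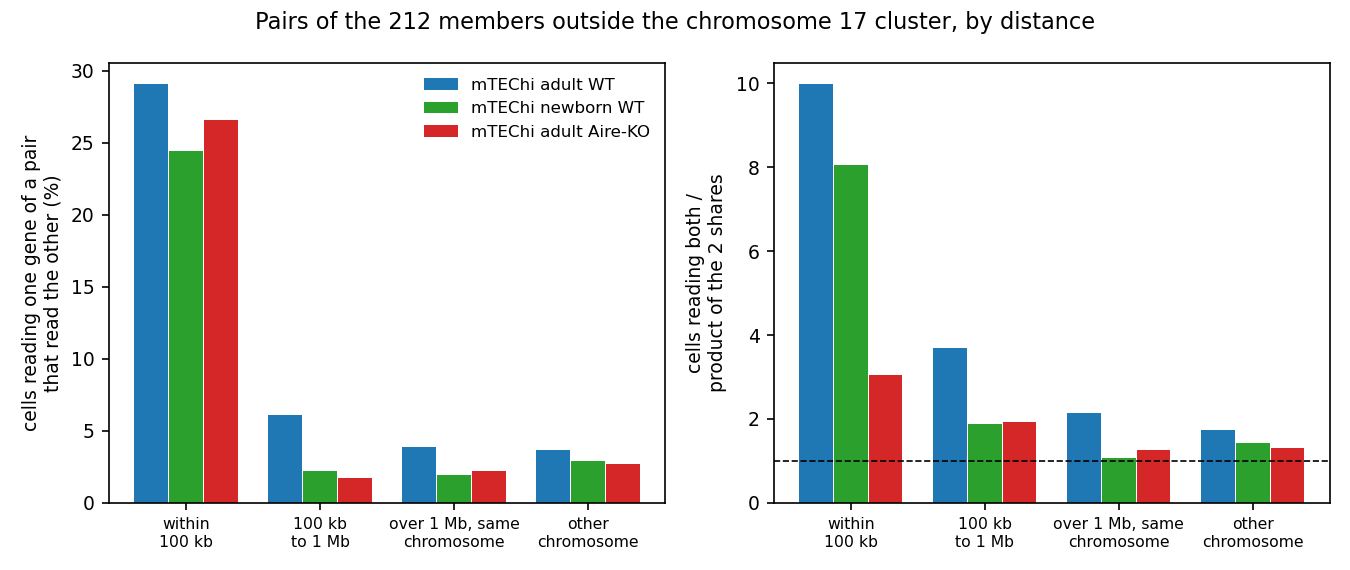
Cells that read a member and also a second member, for the members outside the chromosome 17 cluster, by distance between the genes, in adult WT, newborn and Aire-KO mTEChi. Bars give the share (%) and its ratio to the share of all cells (dashed line at 1), and both are highest within 100 kb, at 29.1, 24.5 and 26.6% and at 9.99, 8.05 and 3.05 times.

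Members differed from other Olfr genes in their surroundings. The nearest protein-coding gene that is not an Olfr gene lay at a median of 51.6 kb from members and 151.3 kb from the other Olfr genes, and within 50 kb for 48.8 and 20.1%. Outside the chromosome 17 cluster the members' figures were 52.7 kb and 46.2%. Of Olfr genes less than 25 kb from such a gene 42.7% were members, against 4.76% of those more than 250 kb away. Members also had longer exonic length (median 3166 against 2690 bases), and in the shortest and longest quartile of length 13.2 and 25.3% were members. These are values over genes, which are not independent.

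For 37 members, at least 1 in 4 of the cells reading the member also read the nearest such gene, which itself was read in under 1 in 10 of all cells. These limits choose such contrasts, and the same count was not made for other genes. Olfr24 was read with Muc16, a mucin gene, in all 5 of its cells, against 3.55% of all cells. Olfr270 was read with Nipsnap3a in 83.3% of its cells (1.29% of all cells), Olfr290 with the vomeronasal receptor gene Vmn2r65 in 83.3% (0.968%) and Olfr225 with the inflammasome gene Nlrp3 in 80% (9.35%). Each of these 4 members rests on 5 or 6 cells, and the shares are of the cells reading the receptor, not of those reading the neighbour. Olfr1370 (37 cells) was read with Aoah, the gene of acyloxyacyl hydrolase, in 29.7% of its cells against 5.16%.

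The comparison of Aire-KO with WT adult mTEChi asks which Olfr genes depend on Aire. Summed over all Olfr genes, whatever their level, WT pools gave 483.7, 434.8, 625.2 and 530.7 CPM (518.6 ± 81.1, SD, n = 4) and Aire-KO 407.7 CPM, a log2 ratio of −0.35 (exact permutation test over pools, two-sided, p = 0.4, and 0.2 is the smallest p this design allows). The Aire-KO value lay below all WT pools, but the cluster and the remaining genes went opposite ways. The 57 genes of the chromosome 17 cluster summed to 144.9, 160.4, 171.5 and 175.8 CPM in the WT pools and 226.8 CPM in Aire-KO (log2 ratio 0.47). All other Olfr genes summed to 338.7, 274.3, 453.7 and 354.9 CPM in the WT pools and 180.95 CPM in Aire-KO (log2 ratio −0.97). No WT pool overlapped the Aire-KO value in either sum, which has no test since the cluster was set apart after its values were seen. By plate, for plates of at least 60 cells, the cluster summed to 131.5, 200.9, 232.5 and 293.1 CPM in Aire-KO and to 135.6 to 178.04 CPM in WT, so 1 Aire-KO plate lay below all WT plates and 3 above them. All other Olfr genes summed to 145.9 to 191.5 CPM on Aire-KO plates and 194.997 to 466.4 CPM on WT plates.

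Outside the cluster, fewer different genes were read on Aire-KO plates. A cell thinned to 200000 reads read 2.96, 3, 3.55 and 3.11 of these genes in the WT pools (3.15 ± 0.270, SD, n = 4), 3.06 in newborn and 2.32 in Aire-KO mTEChi, below every WT pool. Over the 8 WT mTEChi plates with at least 60 cells, the cells of a plate together read 12.95 to 28.5% of the Olfr genes outside the cluster (median 22.9%), and over the 4 Aire-KO plates 8.44 to 14.2% (median 9.59%). Thinned, the shares were 8.69 to 16.3% in WT and 4.43 to 7.05% in Aire-KO, with no overlap. Of the 57 genes of the cluster, with all reads, a plate read 27 to 34 in WT and 29 to 33 in Aire-KO. The WT plates held 64 to 87 cells and the Aire-KO plates 81 to 87. Plates are technical units, and all Aire-KO plates come from 1 pool.

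**Figure D4:**
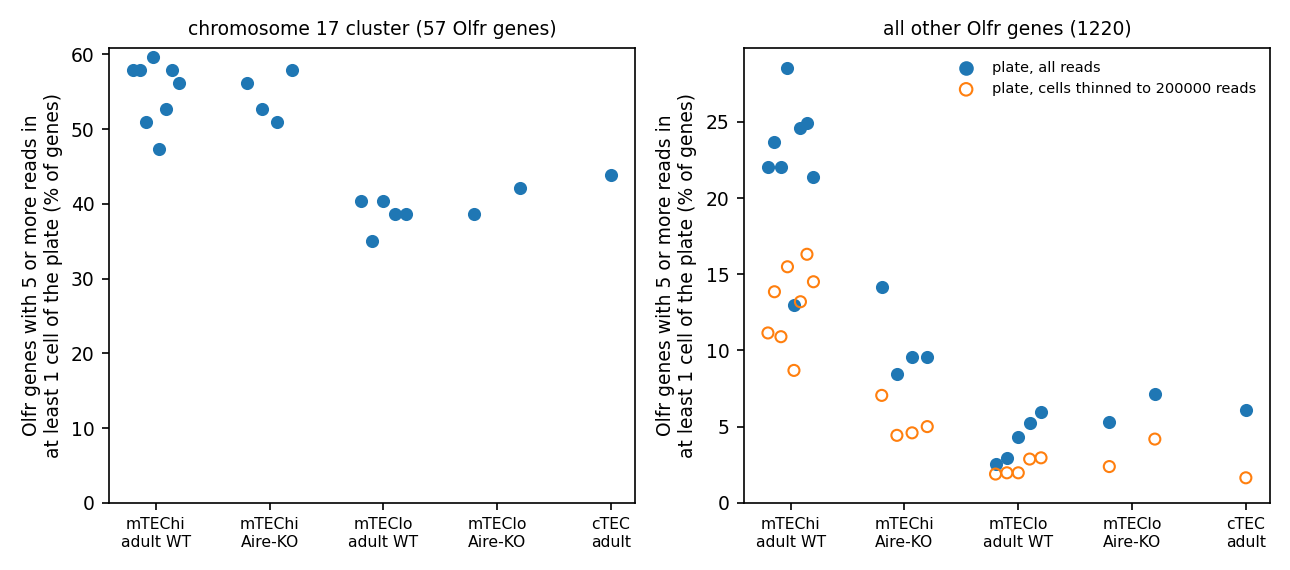
Share of Olfr genes (%) with 5 or more reads in at least 1 cell of a plate, for plates of at least 60 cells, split into the chromosome 17 cluster (57 genes) and all other Olfr genes, where open points are for cells thinned to 200000 reads. Aire-KO mTEChi plates (8.44 to 14.2% of the other genes) overlap the lower end of the WT mTEChi plates (12.95 to 28.5%) with all reads, lie below them when thinned (4.43 to 7.05% against 8.69 to 16.3%), and lie among them for the cluster (50.9 to 57.9% against 47.4 to 59.6%).

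Over members, 85 were read in no Aire-KO mTEChi cell, which allows a share of up to 0.888%, 88 were read in at least 5, and the share of cells was higher in Aire-KO for 31.6% of members and lower for 68.4%. As a description, in edgeR's quasi-likelihood fit over 11 pools and 39971 genes, the median log2 change over members was −2.29 (70.1% negative, against −0.16 over all genes), 0.81 (26 positive, 6 negative) in the chromosome 17 cluster and −3.16 (77.8% negative) elsewhere. A separate log2 ratio, with a floor of 3 reads per group, is another measure than the fitted change. With 30 members at 0 reads in Aire-KO, its medians were −2.81 for all, 0.67 in the cluster and −3.56 elsewhere. Every member passed the filter on low counts, partly through the group in which they were high.

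Members chosen in pool 1 and tested without it gave a smaller shift than all members, but they are also a different set of genes. Of the genes that passed the rule in pool 1 alone, none was called (2-fold or more, Benjamini-Hochberg adjusted p under 0.05), beside 0% of all 38435 genes (16 had an unadjusted p under 0.05, 7 higher and 9 lower). DESeq2 called 2 of them, beside 1.09% of all genes. Their median log2 change in Aire-KO was −0.34 (79 positive, 92 negative), and 0.04 over all genes. The 30 of the cluster had a median of 1.09 (26 positive, 4 negative), and those elsewhere −0.98 (53 positive, 88 negative). The genes elsewhere were read at 3.07 ± 0.687 per cell in WT pools 2 to 4, at 4.46 in Aire-KO and at 3.795 in newborn mTEChi, and thinned at 1.62 ± 0.251, 1.98 and 1.89.

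**Figure D5:**
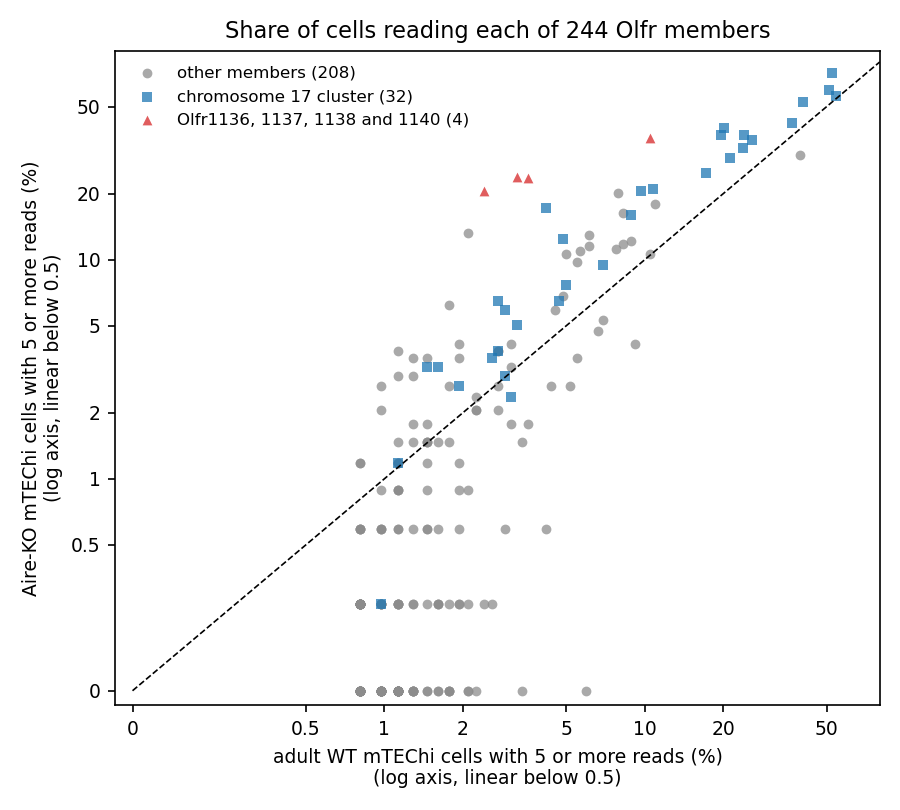
Share of mTEChi cells (%) that read each member in adult WT (x axis) and in Aire-KO (y axis), both on a log scale that is linear below 0.5%. Squares are the 32 members of the chromosome 17 cluster, triangles the 4 chromosome 2 genes and circles the other members. Of all members, 31.6% lie above equal shares and 68.4% below.

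Members that were high in Aire-KO lay in a few places, described here after their values were seen. On chromosome 2 (chr2:87692881-87747581), Olfr1136, Olfr1137, Olfr1138 and Olfr1140 lie next to each other, and the nearest other protein-coding gene is Pramel6. Olfr1136 was read in 9.68, 16.7, 15.9 and 8.54% of the cells of the WT pools and in 35.8% in Aire-KO, at 3.66, 4.76, 5.17 and 3.28 CPM against 18.4. Olfr1137 was read in 3.60, 0, 4.88 and 2.44% and in 23.7% in Aire-KO. Olfr1138 was read in 2.25, 8.33, 3.66 and 1.22% and in 20.7% in Aire-KO, and Olfr1140 in 3.15, 0, 6.10 and 1.22% and in 23.96%. For each of the 4 genes the Aire-KO value was above all WT pools, and at least 1 of the 4 was read in 13.1% of WT cells (95% exact interval 10.5 to 16.0, plates 8 to 25) and 46.4% of Aire-KO cells (41.0 to 51.9, plates 36.9 to 60.9). Thinned, the shares were 6.61 and 31.4%, and the difference remained at equal depth. Newborn mTEChi had 11.7%, Aire-KO mTEClo 0.649% (1 cell), and adult WT mTEClo 0 cells, which allows up to 0.840%. Of the cells that read any of the 4, 59.9% read at least 2 in Aire-KO against 28.4% in WT, and 36 Aire-KO cells read all 4. Olfr1140 overlaps Olfr1139-ps1, which is no member and was read in 3 WT and 30 Aire-KO cells.

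A set of 5 genes on chromosome 1 (Olfr433, Olfr429, Olfr427, Olfr231 and Olfr424) was read in 19.0% of WT (pools 19.4, 8.33, 15.9 and 21.95, plates 0 to 27.6) and 29.3% of Aire-KO cells (plates 22.1 to 42.5, overlapping those of WT), and in 7.60% of newborn cells. Thinned, it was 7.26 and 15.4%. On chromosome 16, Olfr164 to Olfr169, of which only Olfr164 is a member, were read in 2.42% of WT cells (pools 1.58, 8.33, 6.10 and 2.44, plates 0 to 20) and in 15.4% of Aire-KO cells (95% exact interval 11.7 to 19.7, plates 5.95 to 23.3). These plate ranges also overlap, and the WT plate at 20% held 5 cells.

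Other members, also named after their values were seen, were read in WT and hardly in Aire-KO. The rule asked for reads in WT cells and made no demand on Aire-KO cells, so it favours such a contrast. Olfr1370 (chr13:21069334-21074947) was read in 5.63, 0, 9.76 and 4.88% of the cells of the WT pools at 3.38, 0, 4.53 and 3.55 CPM, in 1 newborn cell and in no Aire-KO cell (0.014 CPM). Olfr464 was read in 4.28, 0, 4.88 and 3.66% and in 0.592% of Aire-KO cells. Pool 2, with 12 cells, had no cell for either gene. Olfr175-ps1 was read in 21 WT cells, Olfr299 in 14 and Olfr531 in 13, and in 0 Aire-KO cells. The neighbours Olfr915, Olfr916, Olfr922 and Olfr923 on chromosome 9 were read in 26 WT cells (18, 0, 2 and 6 by pool), 18 of which read at least 2 of them, and in 1 Aire-KO cell (8.30 against 0.102 CPM).

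Cells with other marker lists were also unequal between the genotypes. The microfold list (Spib, Gp2, Ccl20 and Tnfaip2, at least 3 read) was met by 36.5% of WT and 8.58% of Aire-KO mTEChi cells, the tuft list by 12.9 and 5.62%, the ciliated list by 22.9 and 12.7%, the neuroendocrine list by 11.0 and 18.0%, and the olfactory sensory neuron list by 19.0 and 8.58%. WT cells that met the ciliated list read 12.4 members and the rest 8.23 (thinned 5.27 and 3.44), and in Aire-KO 15.4 and 10.7 (6.63 and 4.32). Thinned, pool 1 had 5.58 and 3.23, pool 3 4.65 and 4.16, pool 4 3.94 and 3.83, and newborn mTEChi 3.09 and 3.32, so the difference was largest in pool 1 and turned round in the newborn. Cells meeting the olfactory list read 11.7 members in WT against 8.59 in the rest (thinned 4.81 and 3.63, and in pool 4, unthinned, 8.06 and 8.02). Thinned, the values were 4.31 and 4.64 in Aire-KO and 3.21 and 3.29 in newborn mTEChi, in the other direction. Thinned WT cells meeting other lists read more: neuroendocrine 5.162 against 3.696, microfold 4.332 against 3.584, thymocyte 4.853 against 3.799 and cortical 4.734 against 3.506. The tuft (3.725 against 3.876) and keratinocyte (3.736 against 3.882) lists went the other way, as they did in Aire-KO. In Aire-KO, thinned, the 14 cells meeting the thymocyte list read most, at 7.929 against 4.469. The part of these lists in the changes of the members was not tested.

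The remaining comparisons are among groups that did not choose the members, but the fit took its filter and spread from all 11 pools, adult WT mTEChi included. Of the members, 90.98% had at least 3 reads in 1 of both groups for newborn against Aire-KO mTEChi, 86.5% for newborn mTEChi against mTEClo and 76.2% for Aire-KO mTEChi against mTEClo, and the rest were tested only through other pools. Counts and medians over members are therefore descriptions. Over all tested Olfr genes the median log2 changes of these comparisons were 1.04, 3.0 and 0.00. Between newborn and Aire-KO mTEChi, which differ in age and genotype together, the fit called 0 members, beside 0% of all genes, and 17 members had an unadjusted p under 0.05 (6.97%, 15 higher and 2 lower in newborn) against 4.42% of all genes. DESeq2 called 5 members, beside 0.925% of all genes. The median log2 change over members was 1.37 (62.7% positive, 34.8% negative), against 0.12 over all genes, and was −1.63 (6 positive, 26 negative) in the chromosome 17 cluster and 1.81 (69.3% positive) elsewhere. Olfr1372-ps1 had the value 4.09 (SE 1.28, adjusted p = 1 in edgeR's quasi-likelihood test), with 4.14% of Aire-KO and 15.8% of newborn cells reading it at 1.45 and 26.4 CPM. For Olfr101 and Olfr99 the values were −2.67 and −2.33, and for Olfr920 1.53 (SE 0.95, adjusted p = 1).

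Between newborn mTEChi and newborn mTEClo, sorted onto the same plates, the fit also called 0 members, beside 0% of all genes, and 47 members (19.3%, all higher in mTEChi) against 10.2% of all genes had an unadjusted p under 0.05. DESeq2 called 26 members, all higher in mTEChi, beside 4.54% of all genes. The median log2 change was 4.09 over members (81.1% positive, 14.8% negative) and 0.15 over all genes, 3.42 in the cluster and 4.26 elsewhere. Olfr94 had 4.40 (SE 1.19, adjusted p = 0.276), Olfr107 3.59 (SE 1.01, adjusted p = 0.297) and Olfr753-ps1 3.39 (SE 1.14, adjusted p = 0.397) in edgeR's test. Olfr920, by contrast, had 0.86 (SE 0.94, adjusted p = 0.797), and with genes at 0 set to the floor the median over members was 2.90.

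In Aire-KO mice, mTEChi against mTEClo gave 0 members called where 0.445% of all genes were, and 22 members had an unadjusted p under 0.05, all higher in mTEChi (9.02%, against 11.0% of all genes). DESeq2 called 16 members, 15 of them higher in mTEChi, beside 5.76% of all genes. The median log2 change was 1.02 (59.02% positive, 32.4% negative), against 0.00 over all genes, at 1.49 in the cluster and 0.56 elsewhere. Olfr1136 had 14.08 (SE 3.06, adjusted p = 0.118), Olfr1138 8.68 (SE 1.99, adjusted p = 0.136) and Olfr433 7.76 (SE 1.896, adjusted p = 0.163) in edgeR's test, where mTEClo was at or near 0 reads, so the fitted size has no fixed bound. In adult WT, as a description with no test, the median log2 difference was 4.51 (89.3% positive), against 0.30 over all genes. The newborn and Aire-KO contrasts rest on 1 pool a side, with 5 residual degrees of freedom shared over 11 pools. At the spread of these pools the fit did not recover changes put into simulated counts, so 0 calls do not show that the members did not differ. With plates as the samples, which are technical units and not mice, edgeR called 29 members for newborn against Aire-KO mTEChi (beside 9.51% of all genes), 98 for newborn mTEChi against mTEClo (25.3%), 17 for Aire-KO mTEChi against mTEClo (12.8%), and 10 of the genes chosen in pool 1 for Aire-KO against WT without that pool (3.52%).

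Members that were higher in mTEClo were few (10.7% in the adult WT fit), which the rule, applied in adult WT mTEChi, favours. Olfr461 (chr6:40542171-40555050), named after its values were seen, was read in 9.22, 47.3 and 54.5% of the cells of the mTEClo pools at 10.4, 162.8 and 167.7 CPM and in 41 of 620 mTEChi cells. In adult WT mTEClo, 57.7% of the cells that met the tuft list (Pou2f3, Trpm5, Dclk1, Avil, Gnb3, Gng13 and Alox5ap, at least 3 read) read it, and 5.45% of the others, and the pools gave 10 of 27, 35 of 69 and 34 of 41 tuft-list cells. In Aire-KO mTEClo it was read in 24 of 36 tuft-list cells and 4.24% of the others. Olfr461 therefore followed the tuft list in both genotypes.

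Aire and the number of Olfr genes read were compared within pools, as a description over cells. On cells thinned to 200000 reads, Spearman's rho of Aire with the number of Olfr genes outside the cluster that were read was 0.34, 0.29, 0.42 and 0.26 in WT pools 1 to 4, 0.18 in newborn and 0.35 in Aire-KO mTEChi, where Aire had a median of 1 read per cell. For the 57 genes of the cluster it was 0.16, 0.59, 0.31 and 0.16 in the WT pools, 0.19 in newborn and 0.16 in Aire-KO mTEChi. Both Aire-KO values fell between the lowest and highest WT pool, and cells share depth and composition.

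Genes that serve odorant receptors in the nose were read in mTEChi as well. Of 30 genes of odorant transduction, receptor export and receptor choice, 6 were called higher and 4 lower in adult WT mTEChi than in mTEClo by edgeR (beside 11.7% of all genes), and none in the other comparisons. Omp, the olfactory marker protein, was at 60.6 ± 23.8 CPM (SD, 4 WT mTEChi pools), 41.0 in newborn, 36.2 in Aire-KO mTEChi and 7.62 in adult WT mTEClo. Cnga2, the subunit of the olfactory cyclic nucleotide-gated channel, was at 29.4 ± 12.7 CPM in WT, 12.5 in Aire-KO mTEChi and 1.95 in mTEClo. Rtp1, which carries receptors to the membrane, was at 2.37 ± 2.64 CPM in the WT pools, an SD above its mean, and 0.00 in Aire-KO. Gng13, a G protein subunit also used by tuft cells, was at 2.29 CPM in WT mTEChi and 15.6 in mTEClo. The others called lower were Ric8b, Slc12a2 and Ldb1. Adcy3, the adenylyl cyclase, was at 24.3 CPM in adult WT mTEChi, 63.9 in newborn mTEClo and 47.7 in newborn cTEC. Gnal, the olfactory G protein, was at 34.6 ± 51.5 CPM in the WT pools, an SD above its mean. Lhx2 and Gap43, neuron genes of the list, were at 2.98 and 2.53 CPM in adult WT mTEChi and 0.218 and 0.092 in Aire-KO mTEChi.

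Set beside the other receptor families, Olfr genes passed the rule of 5 reads in 5 adult WT mTEChi cells at 19.1%. The same rule took 16.1% of Vmn1r (25 genes), 18.7% of Vmn2r (20 genes), 62.5% of Taar (10 genes) and 17.5% of Tas2r genes (7 genes), and in Aire-KO 12, 8, 0 and 5 genes. Of protein-coding genes 87.01% passed in WT and 77.5% in Aire-KO. Of all genes 60.999% passed in WT, 51.3% in Aire-KO and 44.4% in newborn mTEChi. In Aire-KO 99 Olfr genes passed, of which 88 are members (88.9% of the 99 and 36.1% of the members), and in newborn mTEChi 64, all of them members (26.2% of the members). These groups have fewer cells than adult WT mTEChi, which lowers the number that can pass.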

How the data were processed

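Single cells of mouse thymus were sequenced by RamDA-seq. The authors trimmed reads to 50 bases where necessary, filtered them with fastp 0.20.0, aligned them with STAR 2.7.3a to mm10 with Ensembl GRCm38 gene models, removed alignments of mapping quality under 5 with SAMtools 1.9, removed duplicates with Picard 2.21.1 and deposited raw counts per gene from HTSeq 0.11.2 run without strand. Reads shared by near-identical Olfr genes are lost by the mapping quality filter, so such genes can read low. Overlapping genes are not separable in the stretch they share. The 168 cells sequenced in 2 runs have 1 column each. Groups came from the labels, and counts were summed per pool of cells with the same group, age and sex.

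The rule chose 244 of 1277 Olfr genes, 32 of them in the chromosome 17 cluster, among 1980 cells. Cells per group were 620 (adult WT mTEChi, 444 in pool 1), 171 (newborn mTEChi), 338 (Aire-KO mTEChi), 357 (adult WT mTEClo, 217 in pool 1, 74 in pool 2 and 66 in pool 3), 124 (newborn mTEClo), 154 (Aire-KO mTEClo), 77 (adult cTEC) and 139 (newborn cTEC). Members and gene lists were chosen with earlier results of these data known. Pools were tested with edgeR 4.0.16 (quasi-likelihood, TMM, Benjamini-Hochberg over all genes) in R 4.3.3, tested on simulated counts, where changes put in were not recovered at the spread of the pools and mostly were at a smaller spread. Shares were counted in Python 3.11.15 (scipy 1.17.1), also on cells thinned to 200000 reads. Named members were the 12 read in most WT mTEChi cells, the 6 pairs within 100 kb read together most, the 5 read in most Aire-KO and newborn mTEChi cells, the 3 read most in mTEClo and cTEC, and 3 at each side of the limit. Others were named after their values were seen. Alternatives were other limits, thinning, DESeq2 1.42.0, plates as samples, and leaving out pools.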

Additional observations from a re-analysis of the deposited data

Results flagged for a closer look

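Of 20 sets of 4 adult WT mTEChi pools, 3 had a pool whose gap to its nearest neighbour, as a share of the whole range, was above Dixon's 95% critical value for 4 samples. Chance flags about 1 in 20 such groups. Olfr329-ps had 1.46, 0, 0.014 and 18.8 CPM (gap ratio 0.923), and pool 4 stood apart. Olfr324 had 2.46, 0, 0 and 0.309 CPM (0.874), and pool 1 stood apart. Both are members read in only 5 cells. Members of the chromosome 17 cluster read per cell were 4.78, 4.75, 4.89 and 4.06 (0.831), and pool 4, the female pool, stood apart. The cause was not tested.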

How the results depend on the processing

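Of 89 settings, 54 left direction and size as reported, and 2 were added after seeing the data. The share of Olfr genes that passed the rule (19.1%) became 51.7% at 1 read, 32.97% at 3 cells, 7.83% at 10 cells and 8.77% after thinning, and 4.78 to 18.8% with a pool left out (4.78% without pool 1, which holds 71.6% of the cells). Members per WT mTEChi cell (8.599) became 17.1 at 1 read, 5.66 at 10 reads, 3.84 thinned and 7.61 for genes chosen in pool 1, and 8.33 to 8.94 with a pool left out. Aire-KO (11.3) became 18.0, 7.99 and 4.61, and newborn (6.78) 15.6, 3.85 and 3.27 at 1 read, at 10 reads and thinned. The neighbour share (28.2%) became 34.1% at 50 kb, 19.6% at 1000 kb, 38.3% at 1 read, 21.1% at 10 reads, 15.2% thinned, 27.5 to 28.7% with a pool left out, and, added after seeing the data, 29.1% outside the chromosome 17 cluster and 31.3% for members under 10% of cells. Members called, 0 in edgeR, were with DESeq2 5 (newborn against Aire-KO mTEChi), 26 (newborn mTEChi against mTEClo), 16 (Aire-KO mTEChi against mTEClo) and 2 (pool 1 left out), with plates as samples 29, 98, 17 and 10, and with a pool left out 0 to 0, 0 to 3, 0 to 1 and 0 to 0. The 3 and 1 came without mTEClo pool 1. The cause was not tested. Plates are technical units, not mice. The log2 ratio of summed Olfr CPM (−0.35) stayed between −0.46 and −0.24 in the settings run, none past the threshold. Depth limits rare members: reading in no Aire-KO cell allows a share of up to 0.888%.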
